A study of Mus musculus with 4 samples.

Results

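Granule genes of granulocytes and mast cells were followed in fetal livers of mice whose dams were fed either a control diet (CD) or a high-fat diet (HFD) during gestation. The set was chosen by name and held 10 genes, Mpo, Elane, Prtn3, Ctsg, S100a8, S100a9, Ngp, Camp, Mcpt8 and Cpa3, of 22911 genes that had a named probe on the array. Each of the 10 was read by 1 probe, and every probe was well above background on all 4 arrays and passed the filters on dim and variable probes. The study profiled livers of E14.5 fetuses of C57BL/6J dams on 4 single-colour arrays. They were labelled as 2 replicates for CD-fed dams (4.3% of energy from fat) and 2 for HFD-fed dams (60% of energy from fat). The diets were given to the dams, and the labels name no genetic change in either group. The labels give the sex as female without saying whether dam or fetus is meant, and the sources used here do not state how many fetuses or litters were behind each array. The labels name no sorting of cells, and in such bulk RNA fewer cells of a type and less RNA per cell cannot be told apart.

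Fetal liver is a site of blood formation, and granulocyte precursors grow there beside hepatoblasts and red cell precursors. Promyelocytes fill the primary (azurophil) granules with myeloperoxidase and a family of serine proteases, and later stages of the neutrophil lineage make the secondary and tertiary granules, which hold cathelicidin-type proteins, and large amounts of the cytosolic S100A8 and S100A9 proteins. Mast cells and basophils store other proteases, among them carboxypeptidase A3 and chymase-family enzymes, in granules that are released when surface IgE is cross-linked. The genes therefore mark successive stages and separate branches of myeloid cells.

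A level is given as the log2 intensity of a probe minus the 75th percentile of that array, so 0 is the brightness at that percentile and a difference of 1 is 2-fold. Levels were compared between arrays for the same probe. Brightness was set side by side between genes only where a list was summed or its brightest genes were picked. Per array, between 65.4% and 70.0% of spots were well above background, no spot was saturated, and all 4 arrays lay on 1 slide read in 1 scan. The second CD array was the dimmest, with a median spot intensity of 70.2 against 97.0 to 120.5 on the other 3. The liver label was checked by albumin (Alb), at 8.14 and 9.06 in the CD livers against 8.53 and 8.54 in the HFD livers, and all 11 hepatoblast markers were well above background. With 2 arrays against 2, an exact two-sided permutation test of a single gene cannot give a p under 0.333, so differences between the diets were tested with limma across all 41332 probes that passed the filters.

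None of the 10 granule genes differed between livers of fetuses from HFD-fed and CD-fed dams by the cutoffs of a 2-fold difference together with an unadjusted limma p under 0.05. The 10 log2 fold changes, HFD minus CD, ran from -0.49 for Prtn3 to 0.35 for Mcpt8 with a median of -0.03, beside a median of 0.04 over the 18188 tested genes with a symbol. Over all tested probes, 0.769% passed both cutoffs, 3.35% had an unadjusted p under 0.05 and 0.0% had an adjusted p under 0.05, and among the 10 members the count was 0 for each of the 3 rules. The HFD arrays did not overlap the CD arrays for 2 of the 10 members, Camp and Mcpt8, which is below the 30.6% of all tested probes whose groups did not overlap. For most of the genes the 2 CD arrays stood further apart than the diets: 9 of the 10 were higher on the second CD array than on the first, Camp by little and not after quantile normalization, and Cpa3 was lower.

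**Figure D1:**
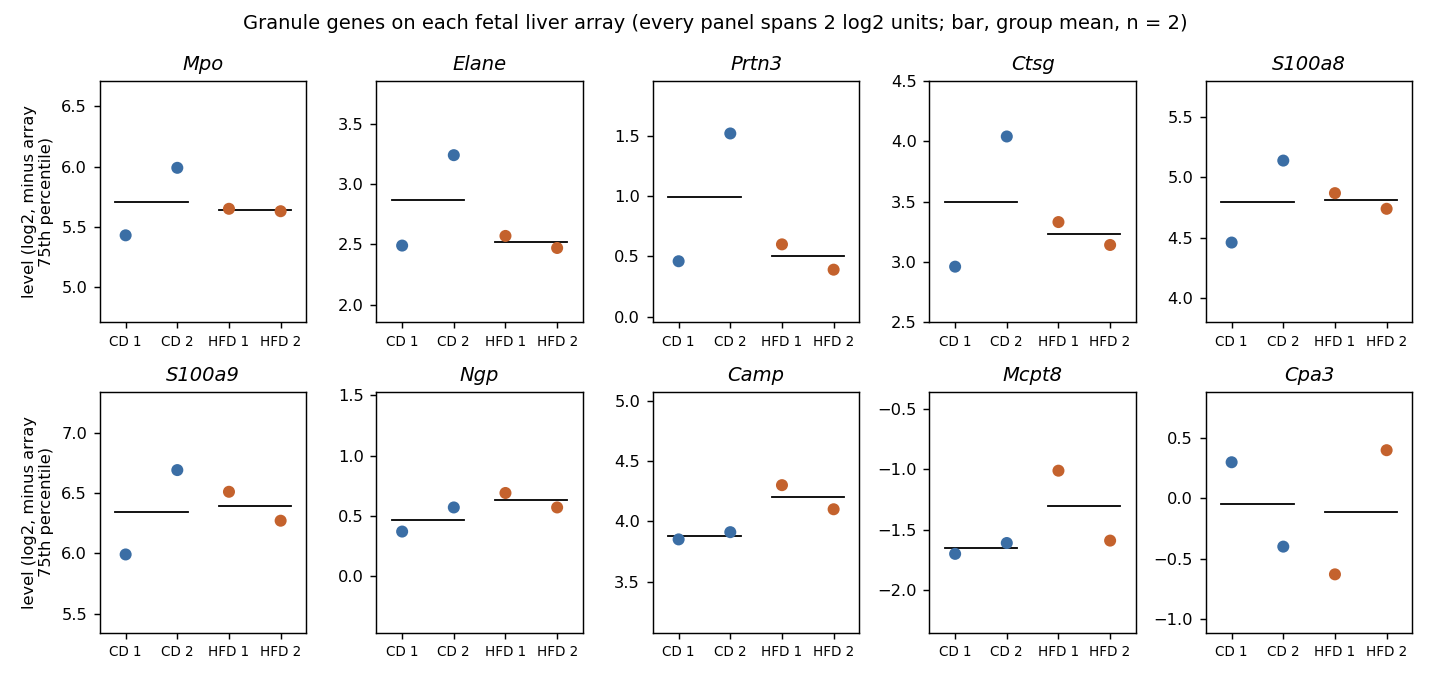
Level of each granule gene (log2 intensity minus the array's 75th percentile) on the CD arrays (blue) and HFD arrays (orange), with a bar at each group mean and every panel spanning the same number of log2 units. The HFD points lie within the range of the CD points for Mpo, Ctsg, S100a8 and S100a9, and Prtn3 and Ctsg show the widest gaps between the CD arrays.

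Mpo encodes myeloperoxidase, the haem enzyme of primary granules that makes hypochlorous acid. Its level was 5.43 and 5.99 in the CD livers against 5.65 and 5.63 in the HFD livers. Both HFD values lay between the CD values, and the mean was 5.71 ± 0.40 (SD, n = 2) in CD and 5.64 ± 0.01 (SD, n = 2) in HFD. The log2 fold change was -0.07 (SE 0.25, 95% interval -0.72 to 0.58, limma adjusted p = 1.00), so a 2-fold difference in either direction lay outside the interval. The intensities before scaling were 46219, 44897, 48567 and 44980 in the same order of arrays, a narrower range than the levels show.

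Elane and Prtn3 encode neutrophil elastase and proteinase 3, serine proteases packed in the same granules, and their genes are neighbours on chromosome 10 with 0 protein-coding genes between them. Elane stood at 2.49 and 3.24 in the CD livers against 2.57 and 2.47 in the HFD livers. Prtn3 stood at 0.46 and 1.52 in the CD livers against 0.60 and 0.39 in the HFD livers. For both neighbours the second CD array was the highest of the 4 and the other 3 arrays lay close together. Elane had a log2 fold change of -0.35 (SE 0.30, 95% interval -1.13 to 0.44, limma adjusted p = 1.00). For Prtn3 it was -0.49 (SE 0.39, 95% interval -1.53 to 0.54, limma adjusted p = 1.00), the lowest of the 10. Both intervals include no difference and also a 2-fold lower level in HFD. Without the first CD array, which leaves the second as the whole CD group, Prtn3 was at -1.02. That fit takes its spread from the other group and the other genes. Without the second CD array Prtn3 was at 0.03.

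Ctsg encodes cathepsin G, a further serine protease of primary granules, which lies in the chymase locus on chromosome 14 beside Mcpt8. Its levels were 2.96 and 4.04 in the CD livers against 3.33 and 3.14 in the HFD livers. Both HFD values lay between the CD values. The log2 fold change was -0.27 (SE 0.40, 95% interval -1.32 to 0.79, limma adjusted p = 1.00). Leaving out the first CD array gave -0.81 and leaving out the second gave 0.27, so the sign of the difference was set by which CD array was kept.

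The promoters of these proteases are shown because Prtn3, Elane and Ctsg had the widest gaps between the CD arrays, with the second highest, while Cpa3, described further on, had the first higher. Each sequence is the 250 bases before the transcription start in RefSeq, build GRCm38.p6, 5′ to 3′ on the strand of the gene, and all 10 members had a promoter in that set. Capitals mark matches to 4 motifs on either strand, whose letters were chosen after the windows had been read. AGGAAGT is a site type bound by ETS factors such as PU.1. GCAAT is part of the sites of C/EBP factors. CAACGG is a site type of Myb. AGATAA is a site type of factors such as Gata2. The Prtn3 window is chr10:79879417-79879666 on the plus strand, the Elane window chr10:79886062-79886311 on the plus strand, the Ctsg window chr14:56102575-56102824 on the minus strand and the Cpa3 window chr3:20242182-20242431 on the minus strand.
Prtn3: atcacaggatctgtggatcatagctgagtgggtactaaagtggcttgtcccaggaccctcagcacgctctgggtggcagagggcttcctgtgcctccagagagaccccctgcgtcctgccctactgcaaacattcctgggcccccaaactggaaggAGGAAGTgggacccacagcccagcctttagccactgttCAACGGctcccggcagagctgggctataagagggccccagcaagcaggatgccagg
Elane: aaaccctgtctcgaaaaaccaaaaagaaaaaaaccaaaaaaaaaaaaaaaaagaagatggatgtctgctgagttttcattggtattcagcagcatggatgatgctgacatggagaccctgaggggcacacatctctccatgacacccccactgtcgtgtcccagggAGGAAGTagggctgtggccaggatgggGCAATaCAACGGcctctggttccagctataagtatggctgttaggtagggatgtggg
Ctsg: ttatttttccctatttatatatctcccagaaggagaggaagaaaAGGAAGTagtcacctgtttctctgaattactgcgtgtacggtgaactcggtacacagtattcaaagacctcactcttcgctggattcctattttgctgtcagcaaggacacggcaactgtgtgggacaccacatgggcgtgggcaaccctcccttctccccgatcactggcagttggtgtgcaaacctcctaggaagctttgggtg
Cpa3: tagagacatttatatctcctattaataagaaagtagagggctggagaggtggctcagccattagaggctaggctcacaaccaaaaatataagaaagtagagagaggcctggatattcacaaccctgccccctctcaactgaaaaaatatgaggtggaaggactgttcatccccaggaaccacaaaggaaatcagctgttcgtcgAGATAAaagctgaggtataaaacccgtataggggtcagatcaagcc
AGGAAGT was found in 5 of the 10 windows (Mpo, Elane, Prtn3, Ctsg and S100a8) and in 7.69% of all 32851 windows of the same length. In Prtn3 and Elane it began 94 and 84 bases before the start, and CAACGG followed at 56 and 51 bases before the start. Only these 2 members held CAACGG, which was in 4.05% of all windows. GCAAT occurred in 6 of the 10 windows (Mpo, Elane, S100a8, S100a9, Ngp and Camp) and in 23.1% of all windows. AGATAA occurred in 2 windows, 46 bases before the start of Cpa3 and 30 bases before that of S100a9, and in 9.99% of all windows. The Ctsg window held AGGAAGT 206 bases before the start and none of the other 3 motifs, and the Mcpt8 window held none of the 4. These are matches of letters, and no binding was measured here.

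S100a8 and S100a9, neighbours on chromosome 3, encode the subunits of calprotectin, a calcium- and metal-binding complex that neutrophils and monocytes carry in their cytosol. S100a8 was at 4.46 and 5.14 in the CD livers against 4.87 and 4.74 in the HFD livers. S100a9 was at 5.99 and 6.69 in the CD livers against 6.51 and 6.27 in the HFD livers. The partners kept the same order of arrays, with both HFD values inside the CD range. Their log2 fold changes were 0.01 for S100a8 (SE 0.28, 95% interval -0.73 to 0.75, limma adjusted p = 1.00) and 0.05 for S100a9 (SE 0.29, 95% interval -0.73 to 0.83, limma adjusted p = 1.00). A 2-fold difference lay outside both intervals. Under quantile normalization the signs turned, to -0.08 and -0.02.

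Among 14 S100 genes listed for comparison, 13 were tested and 1 passed the cutoffs, beside 0.769% of all tested probes. This gene was S100g, which encodes the calcium-binding protein calbindin-D9k. Its level was 0.92 and 1.33 in CD and 2.08 and 2.23 in HFD, a log2 fold change of 1.03 (SE 0.21, limma adjusted p = 1.00). S100a6, another calcium-binding member, was at 3.66 and 2.98 in CD and 3.36 and 3.57 in HFD, the opposite order of the CD arrays from S100a8 and S100a9.

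Camp and Ngp encode proteins of the cathelicidin family stored in secondary granules, the antimicrobial peptide precursor CRAMP and neutrophilic granule protein, and both lie on chromosome 9. Camp was at 3.85 and 3.91 in the CD livers against 4.30 and 4.10 in the HFD livers. Ngp was at 0.37 and 0.57 in the CD livers against 0.69 and 0.57 in the HFD livers. Both HFD values of Camp lay above both CD values, while for Ngp the second arrays of the 2 groups met. The log2 fold change of Camp was 0.32 (SE 0.17, 95% interval -0.14 to 0.77, limma adjusted p = 1.00), with the groups apart but within the error of the fit. For Ngp it was 0.16 (SE 0.18, 95% interval -0.31 to 0.62, limma adjusted p = 1.00). Their CD arrays differed by 0.07 and 0.20, far less than the 0.68 and 0.70 of S100a8 and S100a9. A 2-fold difference between the diets lay outside both intervals.

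Mcpt8 encodes mast cell protease 8, which in mice marks basophils. Its level was -1.70 and -1.61 in the CD livers against -1.01 and -1.59 in the HFD livers. The groups did not overlap, but the second HFD array exceeded the second CD array only in the last digits and the difference came from the first HFD array. The log2 fold change was 0.35 (SE 0.25, 95% interval -0.32 to 1.02, limma adjusted p = 1.00), an interval that includes a 2-fold higher level in HFD, and it was 0.06 without the first HFD array. With normexp background correction it was 0.22, and the intensities of this probe were 231 to 482.

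Cpa3 encodes carboxypeptidase A3 of mast cell granules, which early mast cell and basophil precursors also express. Its level was 0.30 and -0.40 in the CD livers against -0.63 and 0.40 in the HFD livers. The groups overlapped fully, with high values on the first CD and second HFD array and low values on the other pair. The mean was -0.05 ± 0.49 (SD, n = 2) in CD and -0.11 ± 0.73 (SD, n = 2) in HFD. The log2 fold change was -0.07 (SE 0.44, 95% interval -1.24 to 1.11, limma adjusted p = 1.00). This interval, wider than that of the granulocyte members, includes a 2-fold difference in either direction.

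**Figure D2:**
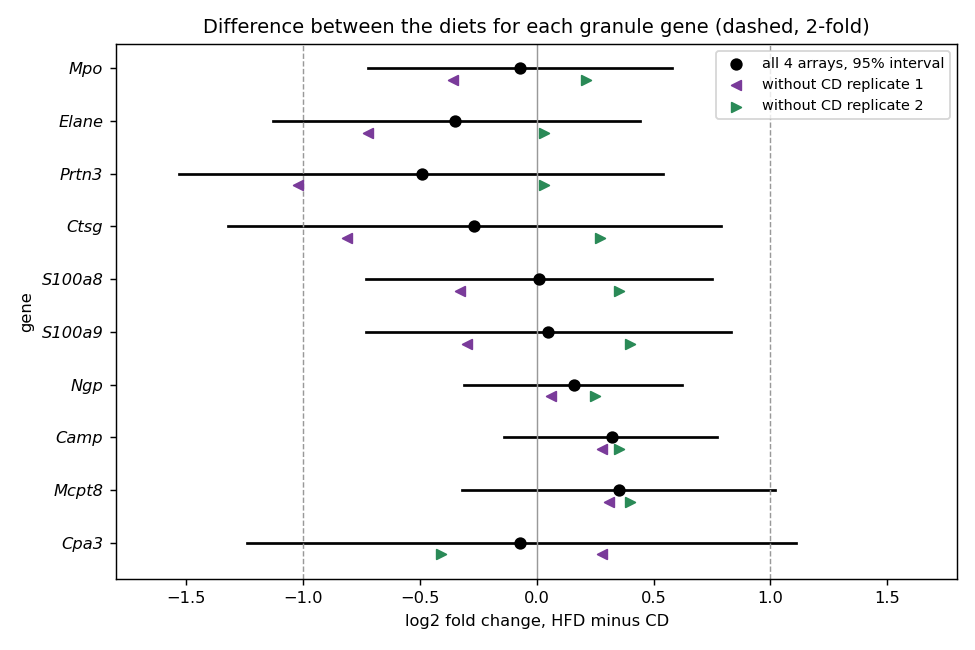
Log2 fold change of each granule gene, HFD minus CD, over all 4 arrays with its 95% interval from limma (black), and the value when the first (purple) or the second (green) CD array was left out. Every interval includes 0, and the value without a CD array changed sides for all genes except Ngp, Camp and Mcpt8.

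All members except Camp and Mcpt8 differed more between the CD arrays than between the diet means. From the first to the second CD array, Ctsg was 1.08 and Prtn3 1.06 higher on the log2 scale, ratios of 2.11 and 2.08. Differences at least as large in that direction were seen for 1.51% and 1.65% of all tested probes. Elane followed with 0.75, S100a9 with 0.70, S100a8 with 0.68 and Mpo with 0.57. The primary granule proteases thus had wider gaps than Mpo of the same granules, and Ngp (0.20), Mcpt8 (0.09) and Camp (0.07) had narrow ones. Between the HFD arrays, the 8 granulocyte genes differed by -0.02 for Mpo to -0.24 for S100a9, all slightly lower on the second array, whereas Mcpt8 differed by -0.59 and Cpa3 by 1.03. With 2 arrays a group no test of these within-group differences was made.

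The scale of the arrays moved part of these values. Before scaling, the first and second CD array gave 46219 and 44897 for Mpo and 6042 and 6667 for Elane. S100a8 gave 23616 and 24834, and S100a9 68046 and 72799. Prtn3 gave 1476 and 2019, and Ctsg 8354 and 11591, while Ngp, Camp, Mcpt8 and Cpa3 were dimmer on the second. The 75th percentile lay at an intensity of 1072.7 on the first CD array and 704.2 on the second. Tested probes as a whole differed by a median of 0.03 between the CD arrays, and the 7656 with a mean level over 2 by 0.21. After quantile normalization, the CD difference was 0.94 for Ctsg, 1.02 for Prtn3, 0.64 for Elane, 0.49 for S100a8, 0.39 for S100a9 and 0.34 for Mpo, still higher on the second array. That of Camp turned to -0.09, and it was -0.02 when the percentile was taken over probes well above background. Cpa3 remained lower on the second CD array, at -0.70 after quantile normalization.

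Other genes of the same cells gave a background to the members. In the list of primary granule and promyelocyte genes, 11 of 12 were tested, 0 passed the cutoffs in either direction, and the log2 fold changes ran from -0.39 to 0.24 with a median of -0.04. Of these 11, 10 were higher on the second CD array, with a median difference of 0.57. Plac8 was at 3.47 and 3.97 in CD and 3.61 and 3.75 in HFD. Srgn, which encodes the proteoglycan core serglycin that holds proteases in granules, was at 2.55 and 3.18 in CD and 3.03 and 2.88 in HFD. Gusb, the lysosomal beta-glucuronidase, was at 2.73 and 3.26 in CD and 3.02 and 2.94 in HFD. All 3 had the second CD array highest, as Mpo, Elane, Prtn3 and Ctsg did.

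Of 24 later neutrophil genes, 21 were tested and 0 passed the cutoffs, with a median log2 fold change of 0.06 and 18 of the 21 higher on the second CD array. Stfa1, a stefin (cysteine protease inhibitor), was at 5.28 and 5.86 in CD and 5.70 and 5.56 in HFD. Csf3r, the receptor of granulocyte colony-stimulating factor, varied little, with 5.79 and 5.66 in CD and 5.74 and 5.81 in HFD. Ltf, the lactoferrin gene of secondary granules, was at 1.44 and 1.94 in CD and 1.94 and 2.07 in HFD, and was picked out after its values were seen. Among 15 tested regulators of myeloid cells of 18 listed, 0 passed the cutoffs (median 0.01), and Csf1r, the receptor of macrophage colony-stimulating factor, was at 3.90 and 4.12 in CD and 4.05 and 4.04 in HFD. Eosinophil genes gave 0 of 10 past the cutoffs, and all 10 were higher on the second CD array, by a median of 0.62.

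**Figure D3:**
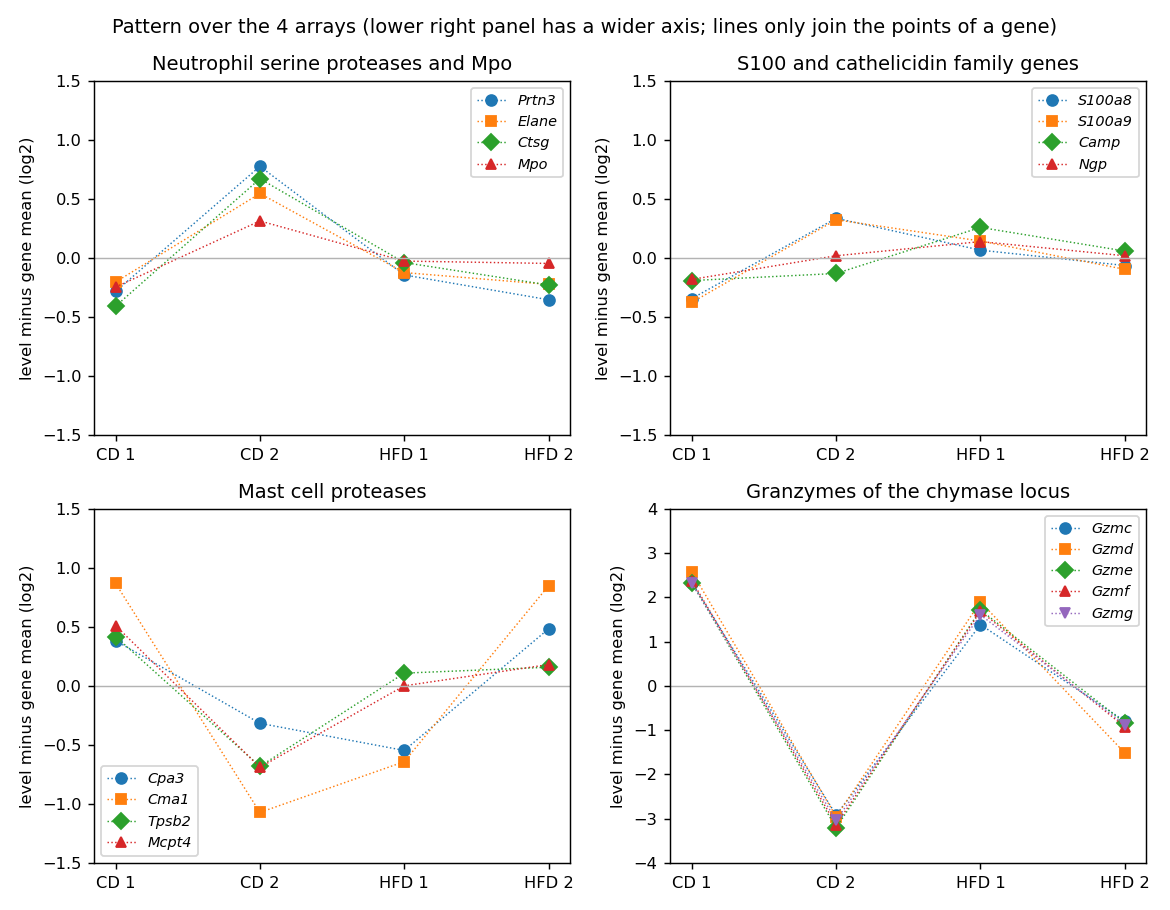
Level of each gene minus its mean over the 4 arrays, in log2 units, for the neutrophil serine proteases with Mpo, the S100 and cathelicidin-type genes, mast cell proteases and granzymes of the chymase locus. The serine proteases peak on the second CD array, where the 4 mast cell proteases drawn, a selection, lie below their mean. Of 18 tested mast cell and basophil genes, 8 were higher on the second than on the first CD array. The granzyme panel has a wider axis.

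Mast cell and basophil genes did not move as a block. Of 22 listed, 18 were tested and 0 passed the cutoffs, with a median log2 fold change of 0.01, and 8 of the 18 were higher on the second CD array. The order of Cpa3, lower on the second than on the first CD array and higher on the second than on the first HFD array, was shared by 5 of the 18 (27.8%), beside 23.1% of all tested genes with a symbol and 0 of the 11 primary granule genes. Gata2, a transcription factor of mast cell and stem cell programmes, was at 0.59 and -0.04 in CD and -0.04 and 0.58 in HFD. Tpsb2, a mast cell tryptase, was at -1.38 and -2.48 in CD and -1.69 and -1.64 in HFD. Cma1, the mast cell chymase, was at 0.29 and -1.65 in CD and -1.22 and 0.27 in HFD and was not tested, because its spread exceeded the limit in both groups. These 3 were picked out after their values were seen. Other genes of the list had other orders. Fcer1g, the shared Fc receptor gamma chain, was at 2.86 and 3.58 in CD and 3.09 and 3.12 in HFD, and Kit, the stem cell factor receptor, at 2.00 and 2.61 in CD and 2.05 and 1.97 in HFD. Il1rl1, the interleukin-33 receptor, was at 1.09 and 0.84 in CD and 1.33 and 0.94 in HFD.

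The chymase locus that holds Ctsg and Mcpt8 also holds granzymes, and there the arrays stood further apart. Of 15 listed genes of the locus 4 were tested. Gzme, a granzyme of cytotoxic and uterine natural killer cells, was at 1.45 and -4.08 in CD and 0.84 and -1.71 in HFD. Gzmc was at 0.24 and -5.01 in CD and -0.71 and -2.89 in HFD. Both were lowest on the second CD array, where Ctsg was highest. Gzmd was well above background on only 2 of the 4 arrays, and Gzmf and Gzmg on 3, so their lowest values lay near background. These granzymes had the same order of arrays as Gzme. Gzmb did not, at -2.82 and -4.71 in CD and -3.38 and -4.88 in HFD, with its lowest value on the second HFD array. The granzymes are close relatives, and whether their probes bind each other's transcripts was not tested.

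Over the 4 arrays, the median centred profile of the 10 members was -0.23 and 0.32 in the CD livers against 0.02 and -0.08 in the HFD livers. Mpo lay nearest to it, at a Euclidean distance of 0.06 log2 units, followed by S100a8 at 0.12 and S100a9 at 0.19, and Cpa3 lay farthest, at 1.19. Among 16581 other genes well above background on all arrays, the nearest were Sirt7, Aars, Npm1, Ptpn6 and Pram1, at distances of 0.02 to 0.03. Npm1, which encodes the nucleolar protein nucleophosmin, was at 6.80 and 7.38 in CD and 7.05 and 6.97 in HFD. Ptpn6, a phosphatase of blood cells, was at 0.62 and 1.15 in CD and 0.87 and 0.76 in HFD. A likeness over 4 arrays is a description of these arrays only.

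Markers of several other cell types differed between the CD arrays too, but those of lymphoid cells did so little. Of the B lymphoid genes, 4 of 7 were higher on the second CD array (median 0.09), and of the T and NK genes 3 of 6 (-0.08). The second CD array was higher for 11 of 11 hepatoblast genes (median 0.50), 9 of 9 erythroid genes (0.49) and 7 of 7 megakaryocyte genes (0.76), and lower for 5 of 6 tested genes of mesenchyme and skin (-0.90), while 55.5% of all tested genes were higher there. The summed level of the 8 mesenchyme and skin genes, each level taken back from log2, was 545 and 289 in the CD livers against 383 and 427 in the HFD livers. Of 14 genes listed for the trophoblast and decidua, 13 had a probe and 12 exceeded background clearly on both arrays of at least 1 diet. The filters left only 3 to test, of which 0 passed the cutoffs (median log2 fold change 0.06). The 10 that the filters removed had log2 fold changes from -4.91 for Ceacam12 to -3.61 for Prl7a1. For 11 of the 13 both HFD values lay below both CD values, beside 1840 of the 18188 tested genes with a symbol. Tpbpa, Tpbpb, Prl8a8, Prl8a9, Psg18, Psg21, Ceacam11 and Ceacam12 are among the paper's lowered genes from these same arrays. This count was therefore partly fixed in advance. Tpbpa was at 3.01 and 4.80 in CD and 1.00 and -1.01 in HFD. Gcm1 went the other way, at 5.65 and 4.28 in CD and 5.43 and 5.60 in HFD. The summed level of the list, 68.6 and 85.3 in CD and 48.1 and 49.8 in HFD, was largely that of Gcm1 in HFD, and without it the sums were 18.4 and 65.9 in CD and 4.85 and 1.40 in HFD. In the gonad and adrenal list, 2 of 6 tested genes passed the cutoffs, beside 0.769% of all tested probes. They were Nr5a1 and Cyp11a1, with log2 fold changes of 1.20 and 1.87 and a limma adjusted p = 1.00 for each. Dazl, Mael, Dppa4 and Cyp11a1 of this list are among the paper's raised genes from these same arrays. The counts for the list were therefore partly fixed in advance. The filters left 6 of the 10 listed genes to test. Of these, 5 were higher in HFD without overlap of the groups, beside 4193 of the 18188 tested genes with a symbol. The remaining tested gene, Foxl2, was at -0.31. The part of these other cells in the levels of the granule genes was not tested.

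**Figure D4:**
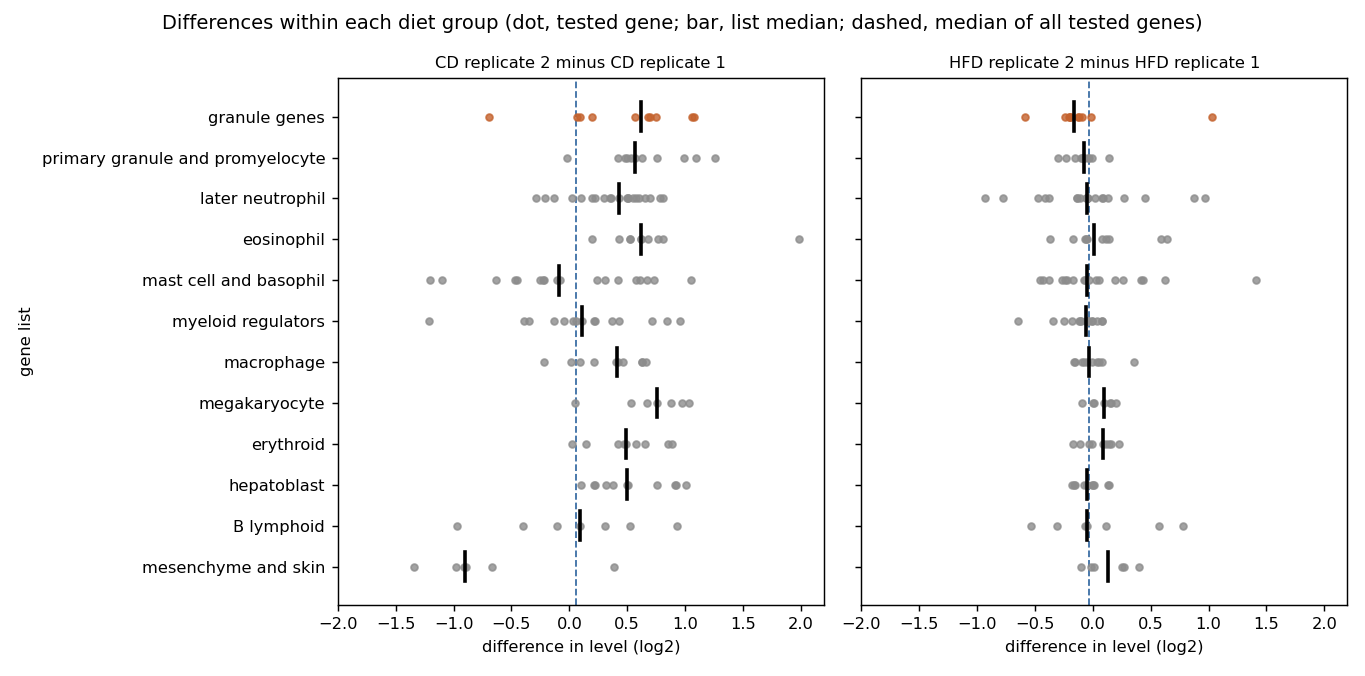
Difference in level between the replicates of each diet group, in log2 units, for the granule genes (orange) and for marker lists (grey), with a dot for each tested gene, a bar at each list's median and a dashed line at the median of all tested genes. Between the CD arrays the granule genes had a median of 0.62, close to the medians of the primary granule, eosinophil and hepatoblast lists, while the granule genes' median between the HFD arrays was -0.16.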

How the data were processed

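Total RNA of fetal livers (2 CD and 2 HFD samples) was labeled with Cy3 and hybridised to a mouse array by the authors, who read it with Agilent Feature Extraction 11.0.1.1 per the submitters' processing notes. The deposited intensity of each spot had been background-subtracted and detrended, but not scaled between arrays. The deposited spot flags (outlier, saturated, well above background) take a score of 0 or 1. A normalized signal was deposited as well, which equals the intensity divided by 1 constant per array (within 0.1% for 100% of 41471 probes).

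Spots flagged as outliers (39 to 58 per array) were left out, spots of a probe were averaged on the log2 scale, and the 75th percentile of each array was subtracted. Probes that any array placed under its 20th percentile (14980) or with a CV over 50% in both groups (284) were left out, which left 41332. HFD was compared with CD by limma 3.58.1 (R 4.3.3; lmFit, then eBayes, without covariates, Benjamini-Hochberg adjustment), with 2 residual and 2.52 prior degrees of freedom. The interval of a log2 fold change came from the same fit. Precision is limited by the number of arrays. Probes were named through the transcripts of RefSeq (assembly GRCm38.p6), which gave 32994 of 56605 probes 1 symbol, and a gene with several probes was read by the brightest.

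The members, the gene lists (from general knowledge) and the tests were chosen with earlier results of these data known. The trophoblast, gonad and kidney lists include genes that the paper reported from these arrays. Named in the text were all members, the listed genes past both cutoffs, genes among the 3 with the highest mean signal in each list and the 5 genes nearest to the members' profile, and any other gene is said to be picked after its values were seen or serves to describe cell types beside the members. The steps were tested on simulated data. Alternatives were quantile normalization, the percentile over detected probes, normexp (offset 50), the deposited table, other filters, the methods' t-test, the replicate number as a block and leaving out each array. Tables and plots were made with matplotlib 3.10.9, pandas 2.3.3 and numpy 2.4.6 (Python 3.11.15).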

Additional observations from a re-analysis of the deposited data

How the results depend on the processing

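The count of 0 member probes past the cutoffs was 0 under every alternative except 1 without CD replicate 1 (range 0 to 1 when each array was left out), where Prtn3 passed and 4 members, Mpo, Elane, Prtn3 and Ctsg, had an unadjusted limma p under 0.05, as did 8294 of 42111 tested probes. By the methods' t-test, also in Welch's form, 0 members had an unadjusted p under 0.05. The median log2 fold change of the members ran from -0.32 (without CD replicate 1) to 0.26 (without CD replicate 2). When each array was left out, the log2 fold change ran from -0.36 to 0.21 for Mpo, -0.72 to 0.03 for Elane, -1.02 to 0.03 for Prtn3, -0.81 to 0.27 for Ctsg, -0.33 to 0.35 for S100a8, -0.30 to 0.40 for S100a9 and -0.58 to 0.45 for Cpa3. The sign turned for the first 4 without CD replicate 2, and for the other 3 without CD replicate 1 and without HFD replicate 1. Quantile normalization turned S100a8 (-0.08) and S100a9 (-0.02), and the percentile over detected probes turned S100a8 (-0.03). Ngp (0.06 to 0.25), Camp (0.22 to 0.42) and Mcpt8 (0.06 to 0.65) were higher in HFD under every alternative. Over all probes, 318 passed the cutoffs, against 47 with normexp, 845 with no percentile filter, 97 by the methods' t-test, 46 with Welch's correction and 744 to 1269 when an array was left out. The number with an adjusted p under 0.05 was 0, except 1 with normexp and 24 without HFD replicate 1. Same-numbered arrays shared no clear shift (r = -0.0997 between the deviations of the second CD and second HFD array over 41332 probes). With 2 arrays a group this does not settle whether the samples were paired. With the replicate block, 435 probes and 0 members passed. Where an array was left out, the lone array was assumed to vary like the other group. The cause of these shifts was not tested. The log2 fold change of Mcpt8 was 0.35, against 0.22 with normexp.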
